A study of Homo sapiens with 8 samples.

Results

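Glycolysis and the genes induced in hypoxia were examined in the renal carcinoma line CAKI1, an established human line, as 41 genes found by their symbol in the deposited table of normalized counts. They comprised 4 carriers of glucose and lactate, 17 enzymes of the path from glucose to lactate, 5 PFKFB and PDK enzymes that set the flow through this path, 9 targets of the hypoxia-inducible factors (HIF) and 6 genes of the HIF machinery. In the table of 16782 genes, 39 of the 41 had a row, and all 39 were among the 15593 genes tested. CA9, the carbonic anhydrase often read as a HIF marker in renal carcinoma, and ANKRD37 had no row and were not analysed here. The cells had been serum starved for 24 h. One group of 4 samples (replicate numbers 1 to 4) was then left as control, and the other 4 samples, with the same numbers, were stimulated for 24 h with 5 µg/ml hLcn-2, the iron-loaded form of the siderophore-binding protein lipocalin-2. All samples came from this one cell line in culture, and the study's methods name no engineered deletion or transgene for them. Where the replicates came from is not stated in the labels, so that p-values measure the spread between these samples.

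Glycolysis splits glucose in the cytosol into pyruvate, and lactate dehydrogenase turns pyruvate into lactate, which leaves the cell through monocarboxylate carriers. HIF is a pair of proteins, an alpha subunit (encoded by HIF1A or EPAS1) and ARNT, that binds the short DNA word RCGTG and raises the transcription of most glycolytic enzymes when oxygen is short. With oxygen present, the EGLN prolyl hydroxylases, which need iron as well as oxygen, mark the alpha subunit for the VHL ubiquitin ligase, and VHL is the gene most often lost in clear cell renal carcinoma. Because the alpha subunits are controlled mainly as proteins, the RNA of HIF1A and EPAS1 is not a reading of HIF activity, and the RNA of the targets is the nearer one.

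The libraries read the 3′ end of each mRNA once per molecule, since unique molecular identifiers removed PCR copies. The deposited values are normalized counts on the scale of CPM (reads relative to a library of common size), in which whole reads could be recovered, with totals from 1501563 to 13953090 in control and from 2088266 to 11341137 in hLcn-2-treated cells. Control 4 was the shallowest library, and the deepest held 9.29 times as many reads. Of 12 markers of renal epithelium, 10 were in the table, with summed values of 860 to 1053 in control and 908 to 1143 in hLcn-2-treated cells. CDH2 (311 to 591 over the 8 samples) and PAX8 (201 to 245) were the largest parts of these sums. CDH1 differed by replicate number in both groups, with 9.26 to 16.8 in numbers 1 and 2 and 43.9 to 63.1 in numbers 3 and 4. CDH6 ran from 33.4 to 173, and KRT8, KRT18 and EPCAM lay between 19.5 and 133. PAX2, AQP1 and CUBN did not exceed 5.29, and KRT19 and LRP2 had no row. The fibroblast list (2 of 6 in the table) summed to 3.70 to 6.58 and 2.47 to 5.78, and the leukocyte list (2 of 6) to 1.32 to 4.76 and 2.39 to 3.03. The 4 endothelial markers had no row, and the defining markers PTPRC, CD68, PDGFRA and DCN had none either.

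Across the 39 genes, no difference between the groups passed limma's test, and the median of their log2 fold changes was -0.04, beside 0.00 over all genes tested. Of the 39 genes, 18 had a higher and 21 a lower mean after hLcn-2, with log2 fold changes between -0.41 (ADM) and 0.51 (ARNT). The 17 glycolytic enzymes (median -0.06) lay close to the 13 HIF regulators and targets (median -0.08). By role, the medians were 0.03 for the 4 carriers, 0.14 for the 5 PFKFB and PDK enzymes, -0.10 for the 7 HIF targets in the table and -0.06 for the 6 HIF regulators. These fold changes are the mean of log2(normalized count + 1) in hLcn-2-treated cells minus that in control. The added 1 shrinks the change of genes with low values, while few reads in a shallow library can move it either way. In RNA of whole cultures, fewer cells expressing a gene and less RNA per cell cannot be told apart.

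Limma with Benjamini-Hochberg adjustment called 0 of the 39 genes at an adjusted p under 0.05, and 0 of the 15593 genes tested (0%). At an unadjusted p of 0.05 or less there were 0 of the 39 genes, beside 2.28% of all genes tested. Control and hLcn-2 values overlapped for 39 of the 39 genes, while they did not overlap for 1.88% of all genes tested. Samples with the same replicate number deviated together, and a second fit therefore took the replicate number as a block, which compares each hLcn-2 sample with the control of its own number. With the block, limma called 0 of the 39 genes and 0.282% of all genes tested. At an unadjusted p of 0.05 or less there were then 7 of the 39 genes (17.9%), beside 12.2% of all genes tested. Of these 7, PGAM1, BNIP3L, CA12 and ARNT were higher after hLcn-2, while ENO1, PFKFB3 and ADM were lower. Without limma's intensity trend, the fit with the block left 2 of the 39 genes at this unadjusted p. With the same block, edgeR's quasi-likelihood test of the whole reads called 1 of the 39 genes, PGAM1, beside 1.49% of all genes tested.

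**Figure D1:**
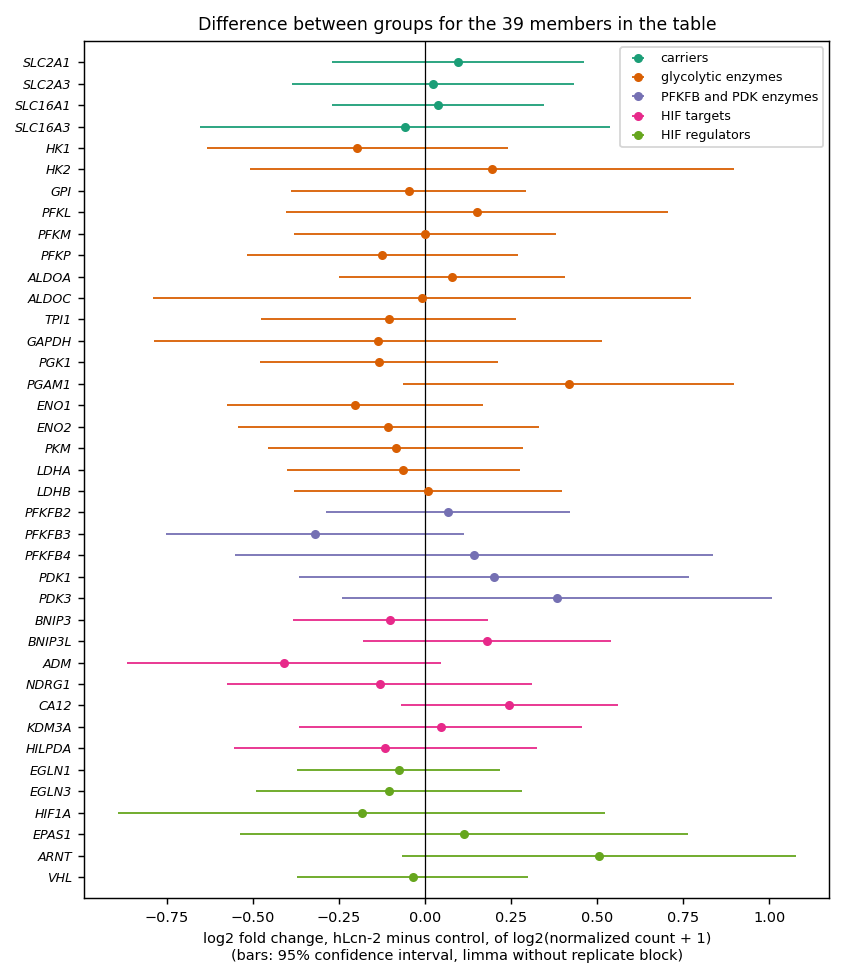
Log2 fold change (hLcn-2 minus control, of log2(normalized count + 1), horizontal axis) of each of the 39 genes in the table, coloured by role. Points are the estimates and bars the 95% confidence intervals of limma without the replicate block. All 39 bars cross 0, and the points lie between -0.41 and 0.51.

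As for most genes tested, the spread among replicate numbers was wider than the difference between groups. For each gene, the mean of the control and hLcn-2 sample was taken within each replicate number, and the range of these 4 means exceeded the size of the log2 fold change for 39 of the 39 genes, beside 95.02% of all genes tested. This range had a median of 0.59 on the log2 scale for the 39 genes and of 0.57 for all genes tested. With the block, the 95% confidence interval of the log2 fold change lay within 1 of 0 for 39 of the 39 genes and within 0.5 of 0 for 31. Without the block it lay within 1 of 0 for 37 of the 39.

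The carriers stand at the entrance and the exit of the path. SLC2A1 encodes GLUT1, the glucose carrier of most cultured cells and a classic HIF target. Normalized counts of SLC2A1 were 194, 202, 159 and 204 in controls 1 to 4 and 212, 226, 145 and 240 in hLcn-2-treated cells 1 to 4. The groups overlapped, and the samples numbered 3 were the lowest of both groups. Its log2 fold change was 0.10 ± 0.17 (SE, n = 4 and 4), with a two-sided exact permutation p of 0.57, and 3 of 4 pairs were higher in hLcn-2-treated cells. It ran from 0.01 without hLcn-2 sample 4 to 0.26 without hLcn-2 sample 3. SLC2A3, the neuronal-type glucose carrier GLUT3, ranged from 105 to 177 in control and from 99.8 to 143 in hLcn-2-treated cells, with a log2 fold change of 0.02. For the lactate carriers SLC16A1 (MCT1) and SLC16A3 (MCT4, the hypoxia-inducible exporter) the log2 fold changes were 0.04 and -0.06. SLC16A3 lay at 163 in control 4 and 140 in hLcn-2 sample 4, and between 66.4 and 83.4 in the other 6 samples, so that number 4 stood apart in both groups.

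Among the 17 enzymes, 6 had a higher and 11 a lower mean in hLcn-2-treated cells, and log2 fold changes ran from -0.20 to 0.42. PGAM1 encodes phosphoglycerate mutase, which moves the phosphate of 3-phosphoglycerate and so stands just past the branch to serine synthesis. Its normalized counts were 29.2, 34.9, 23.1 and 23.0 in controls 1 to 4 and 37.5, 54.0, 27.2 and 32.6 in hLcn-2-treated cells 1 to 4. Each hLcn-2 sample lay above the control of its number, while hLcn-2 samples 3 and 4 lay below control 2. The log2 fold change was 0.42 ± 0.22 (SE, n = 4 and 4), with an exact permutation p of 0.17 without pairing. With the replicate block the standard error was 0.11 and the adjusted p was 0.154 in limma, 0.0468 in edgeR and 0.126 in DESeq2, so that the call was made by edgeR alone among these 3 tests. The log2 fold change was 0.24 without hLcn-2 sample 2, and ran from 0.35 to 0.48 with 1 pair left out. PGAM1 (GRCh38, chr10:97426191-97433444, + strand, 4 exons) has 2 other genes whose sequence nearly matches the end of its transcript, and how the authors' counting divided reads among such copies is not given in the sources used here.

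ENO1, the enolase that makes phosphoenolpyruvate, had its lower values in hLcn-2-treated cells. It had normalized counts of 1795, 1523, 1219 and 1877 in controls 1 to 4 and 1370, 1454, 1133 and 1576 in hLcn-2-treated cells 1 to 4. All 4 pairs were lower in hLcn-2-treated cells, and the groups overlapped, with replicate number 3 the lowest of both. The log2 fold change was -0.20 ± 0.17 (SE, n = 4 and 4), with a limma adjusted p of 0.31 under the block. It was -0.11 without hLcn-2 sample 3 and -0.33 without control 3. ENO1 also has 1 other gene that nearly matches the end of its transcript. LDHA, the lactate dehydrogenase subunit that hypoxia induces, had 864, 761, 609 and 917 in controls 1 to 4 and 856, 736, 649 and 755 in hLcn-2-treated cells 1 to 4. These groups overlapped almost completely, and 1 of 4 pairs was higher. LDHA thus had a log2 fold change of -0.06 ± 0.15 (SE, n = 4 and 4), and of 0.02 without control 4, with a 95% confidence interval under the block of -0.23 to 0.10.

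The remaining 14 enzymes lay between log2 fold changes of -0.20 and 0.19, and none had an unadjusted p of 0.05 or less with or without the block. Of the hexokinases, which trap glucose as its phosphate, HK1 had -0.20 and the hypoxia-inducible HK2 had 0.19. HK2 was higher in 4 of 4 pairs, but ranged from 15.9 to 36.2 in control and from 17.8 to 48.3 in hLcn-2-treated cells. Its log2 fold change was -0.03 without control 3 alone, and ran from 0.12 to 0.25 with 1 pair left out. The phosphofructokinase subunits PFKL, PFKM and PFKP, which form the main control step, had 0.15, 0.00 and -0.12. TPI1 (-0.11) and PGK1 (-0.13), which act on triose phosphates and make the first ATP of the path, were lower in 4 of 4 pairs. Without control 4 alone they had 0.02 and -0.02. With 1 pair left out, TPI1 ran from -0.13 to -0.07 and PGK1 from -0.18 to -0.05. PGK1 has 3 other genes that nearly match the end of its transcript. The pyruvate kinase PKM had -0.08, the aldolases ALDOA and ALDOC 0.08 and -0.01, GPI -0.05, ENO2 -0.11 and LDHB 0.01. GAPDH had values of 10.8 to 24.8 over the 8 samples and a log2 fold change of -0.14, and 8 pseudogenes nearly match the last 300 bases of its transcript. The part of these copies in its low value was not tested.

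The 5 PFKFB and PDK enzymes set how fast glucose enters the path and whether pyruvate leaves for the mitochondria. PFKFB3 makes fructose-2,6-bisphosphate, the activator of phosphofructokinase, and is induced by HIF. Its normalized counts were 127, 96.3, 87.1 and 151 in controls 1 to 4 and 123, 79.0, 82.9 and 81.8 in hLcn-2-treated cells 1 to 4. All 4 pairs were lower in hLcn-2-treated cells, and number 4 carried the widest gap. Its log2 fold change was -0.32 ± 0.20 (SE, n = 4 and 4), the limma adjusted p under the block was 0.311, and the value was -0.18 without control 4. PDK1, the kinase that shuts pyruvate dehydrogenase in hypoxia, had 16.4, 19.4, 12.9 and 11.9 in controls 1 to 4 and 24.8, 18.6, 10.4 and 18.3 in hLcn-2-treated cells 1 to 4. Numbers 1 and 4 were higher and numbers 2 and 3 lower after hLcn-2, and the log2 fold change was 0.20 ± 0.26 (SE, n = 4 and 4). It was 0.03 without hLcn-2 sample 1 and 0.43 without hLcn-2 sample 3. PFKFB2 (0.07), PFKFB4 (0.14) and PDK3 (0.38) were the others. PDK3 and PFKFB4 did not exceed 6.91 CPM in any of the 8 samples, and PDK3 had 2 reads in control 4, without which its log2 fold change was 0.11.

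**Figure D2:**
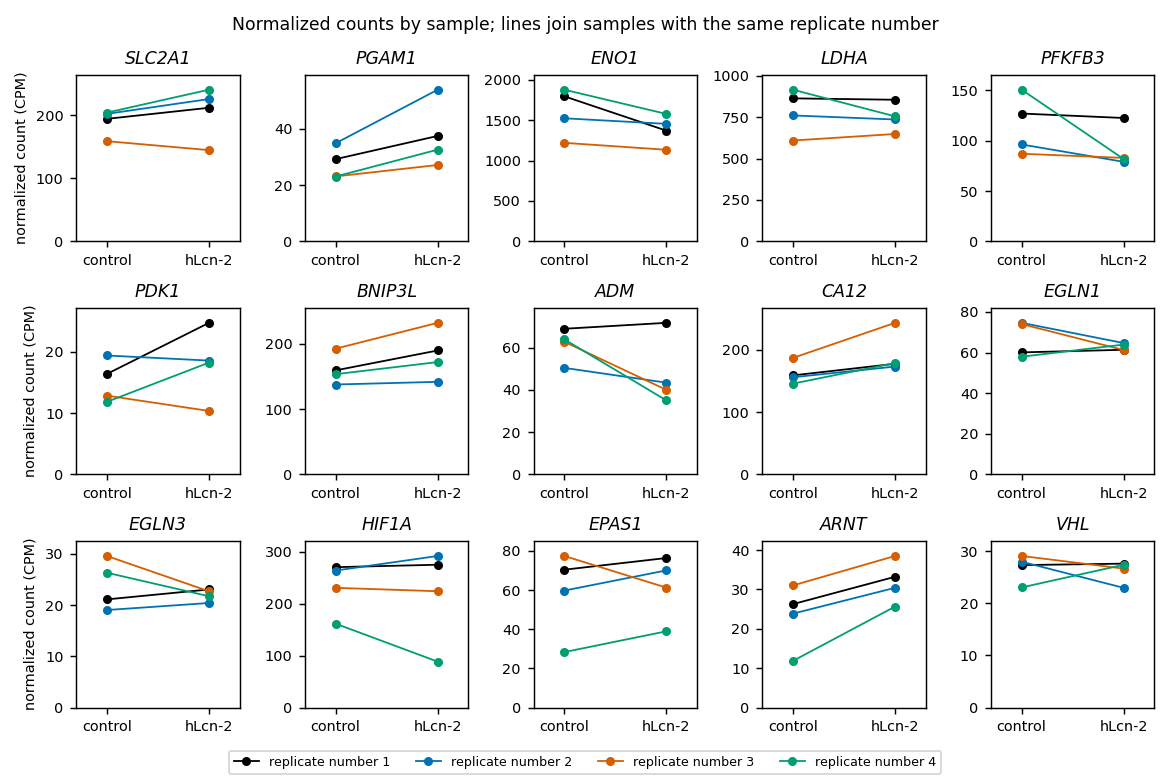
Normalized counts (CPM, vertical axes from 0) of the 15 genes described sample by sample, in control and hLcn-2-treated cells. Each point is a sample, and lines join samples that share a replicate number. The 4 lines go up for PGAM1, BNIP3L, CA12 and ARNT and down for ENO1 and PFKFB3, while the points of both groups overlap in all 15 panels.

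The HIF targets outside glycolysis were split in direction. CA12, a membrane carbonic anhydrase that helps to export acid, had normalized counts of 159, 156, 187 and 146 in controls 1 to 4 and 177, 173, 243 and 179 in hLcn-2-treated cells 1 to 4. Each hLcn-2 sample lay above its control, and control 3 exceeded hLcn-2 samples 1, 2 and 4. CA12 had a log2 fold change of 0.24 ± 0.14 (SE, n = 4 and 4) and a limma adjusted p of 0.223 under the block, and a log2 fold change of 0.13 without hLcn-2 sample 3. BNIP3L, which marks mitochondria for autophagy, had 159, 138, 192 and 153 in controls 1 to 4 and 190, 142, 232 and 172 in hLcn-2-treated cells 1 to 4. It too was higher in 4 of 4 pairs with overlapping groups, at a log2 fold change of 0.18 ± 0.17 (SE, n = 4 and 4) and a limma adjusted p under the block of 0.369. Without hLcn-2 sample 3 the value of BNIP3L was 0.06, and without hLcn-2 sample 2 it was 0.30.

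ADM encodes adrenomedullin, a vasodilator peptide and a sensitive hypoxia gene. Its normalized counts were 68.9, 50.4, 62.8 and 63.9 in controls 1 to 4 and 71.7, 43.4, 40.0 and 35.0 in hLcn-2-treated cells 1 to 4. hLcn-2 samples 2, 3 and 4 lay below all controls, whereas sample 1 lay above them. For ADM the log2 fold change was -0.41 ± 0.21 (SE, n = 4 and 4), with an exact permutation p of 0.14 without pairing and a limma adjusted p of 0.237 under the block. The value was -0.62 without hLcn-2 sample 1, and with 1 pair left out it ran from -0.57 to -0.26. The other 4 targets in the table had log2 fold changes of -0.10 (BNIP3, the relative of BNIP3L), -0.13 (NDRG1), -0.12 (HILPDA, a lipid droplet protein) and 0.05 (the histone demethylase KDM3A).

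Within pairs, the medians of the 7 targets were 0.24, 0.04, -0.12 and -0.39 for replicate numbers 1 to 4, so that the pairs did not share a direction. For the 17 enzymes the same medians were -0.02, -0.03, -0.03 and -0.01. Counting single genes, 10 of the 39 (25.6%) went one way in 4 of 4 pairs, beside 20.8% of all genes tested. HK2, PGAM1, PDK3, BNIP3L, CA12 and ARNT were higher, and TPI1, PGK1, ENO1 and PFKFB3 lower.

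**Figure D3:**
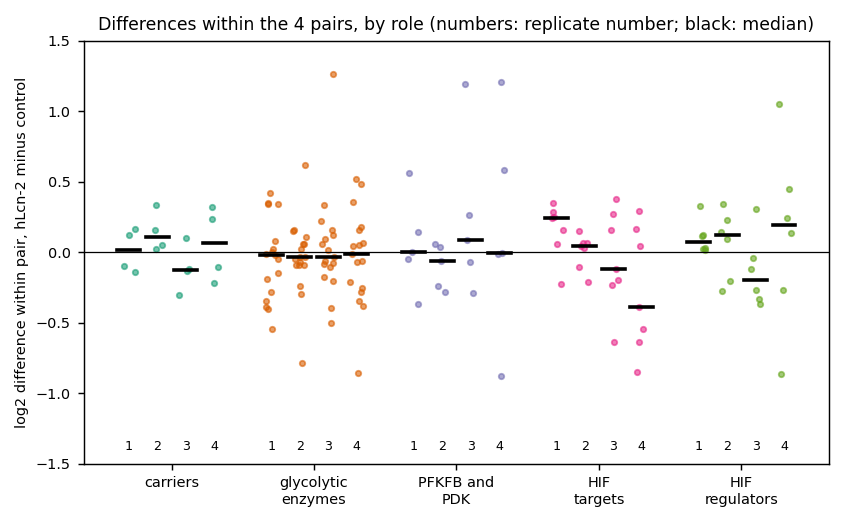
Difference of log2(normalized count + 1) between the hLcn-2 and the control sample of each replicate number (vertical axis), for the genes of each role. Each point is a gene, the digits 1 to 4 name the replicate number and black bars are medians. The enzyme medians lie between -0.03 and -0.01, and those of the HIF targets run from 0.24 in number 1 to -0.39 in number 4.

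The HIF machinery itself showed no difference that passed the test. HIF1A had normalized counts of 270, 263, 230 and 161 in controls 1 to 4 and 275, 291, 224 and 88.3 in hLcn-2-treated cells 1 to 4. Number 4 was the lowest of both groups, and the other 3 pairs differed by at most 0.15 on the log2 scale. For HIF1A this gave a log2 fold change of -0.18 ± 0.32 (SE, n = 4 and 4) with all samples, and of 0.21 without hLcn-2 sample 4. EPAS1, which encodes HIF-2α, the alpha subunit tied most closely to renal carcinoma, had 70.4, 59.7, 77.4 and 28.3 in controls 1 to 4 and 76.3, 70.01, 61.2 and 38.9 in hLcn-2-treated cells 1 to 4. Number 4 was again lowest in both groups. For EPAS1 this gave a log2 fold change of 0.11 ± 0.30 (SE, n = 4 and 4), and of -0.20 without control 4.

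ARNT, the partner that both alpha subunits need, had the highest log2 fold change of the 39 genes. Its normalized counts were 26.3, 23.9, 31.0 and 11.9 in controls 1 to 4 and 33.2, 30.4, 38.5 and 25.7 in hLcn-2-treated cells 1 to 4. All 4 pairs were higher, by 0.33, 0.34, 0.30 and 1.05 on the log2 scale, and the groups overlapped. The log2 fold change was 0.51 ± 0.26 (SE, n = 4 and 4), with an exact permutation p of 0.14, and the adjusted p under the block was 0.167 in limma and 0.0963 in edgeR. Control 4 held 18 reads of ARNT (GRCh38, chr1:150809713-150876708, - strand, 22 exons), and without it the unblocked value was 0.23. With 1 pair left out, the value of ARNT ran from 0.32 to 0.57.

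EGLN1, the main prolyl hydroxylase, had 60.1, 74.6, 74.0 and 57.9 in controls 1 to 4 and 61.4, 64.7, 61.2 and 63.9 in hLcn-2-treated cells 1 to 4. The hLcn-2 values lay within the span of the controls, at a log2 fold change of -0.08 ± 0.14 (SE, n = 4 and 4). EGLN3, the hydroxylase that HIF induces, had 21.1, 19.1, 29.6 and 26.3 in controls 1 to 4 and 23.1, 20.4, 22.7 and 21.7 in hLcn-2-treated cells 1 to 4. Its hLcn-2 values also fell inside the control range, with a log2 fold change of -0.10 ± 0.18 (SE, n = 4 and 4). VHL had 27.3, 28.0, 29.1 and 23.0 in controls 1 to 4 and 27.6, 23.0, 26.7 and 27.4 in hLcn-2-treated cells 1 to 4, and its log2 fold change was -0.04 ± 0.15 (SE, n = 4 and 4). For these 3 genes the 95% confidence intervals under the block were -0.29 to 0.14 (EGLN1), -0.39 to 0.18 (EGLN3) and -0.30 to 0.23 (VHL). With 1 sample left out, the log2 fold change ran from -0.14 to -0.02 for EGLN1, from -0.20 to -0.00084 for EGLN3 and from -0.10 to 0.02 for VHL.

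The DNA before the transcription start was read for the short words ACGTG and GCGTG, which together make up RCGTG, on both strands of the 250 bases upstream of each start (RefSeq, GRCh38.p14). Windows were found for 34 of the 41 genes (62 windows). ACGTG was in 35.5% of these windows and in 18.5% of all 35116 windows, and either word was in 59.7% and 43.2%. Of the genes in the table with a window, the 17 with ACGTG had a median log2 fold change of -0.06 (5 higher, 12 lower), and the 15 without had 0.05 (9 higher, 6 lower). This split overlaps with role, as most enzymes hold the word, and a match is not a bound site. Of the 6 genes higher in 4 of 4 pairs, HK2 and PDK3 had ACGTG and CA12 had GCGTG. PGAM1 and ARNT had neither word in their window, and BNIP3L had no window. Of the genes lower in 4 of 4 pairs, TPI1, PGK1 and PFKFB3 had ACGTG and ENO1 had GCGTG. The windows of ENO1, PFKFB3 and ADM, the 3 genes lower at an unadjusted p of 0.05 or less under the block, are printed here with that of LDHA, a textbook HIF target with a log2 fold change of -0.06. Capitals mark the words on either strand (the lower strand reads as CACGT or CACGC), and CACGTG holds ACGTG on both strands at once.
LDHA, chr11:18394313-18394562, + strand, upstream of one of its annotated starts: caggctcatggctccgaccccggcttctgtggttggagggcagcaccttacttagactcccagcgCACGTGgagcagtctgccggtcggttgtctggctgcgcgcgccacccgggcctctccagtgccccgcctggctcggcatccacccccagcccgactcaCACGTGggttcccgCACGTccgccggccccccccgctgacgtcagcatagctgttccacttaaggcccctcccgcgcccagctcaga
ENO1, chr1:8878687-8878936, - strand, upstream of its annotated start: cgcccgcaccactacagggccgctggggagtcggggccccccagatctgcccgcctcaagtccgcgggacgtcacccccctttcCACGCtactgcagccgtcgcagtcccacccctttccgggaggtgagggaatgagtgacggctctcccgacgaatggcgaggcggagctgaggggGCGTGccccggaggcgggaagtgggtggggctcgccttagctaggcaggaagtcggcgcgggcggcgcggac
PFKFB3, chr10:6202682-6202931, + strand, upstream of one of its annotated starts and inside the span of the gene's longer transcripts: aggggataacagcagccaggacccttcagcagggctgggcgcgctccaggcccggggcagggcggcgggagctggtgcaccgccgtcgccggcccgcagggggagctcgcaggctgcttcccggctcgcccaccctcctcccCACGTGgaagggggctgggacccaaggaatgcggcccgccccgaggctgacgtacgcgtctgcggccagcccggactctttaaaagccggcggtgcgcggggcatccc
ADM, chr11:10304823-10305072, + strand, upstream of its annotated start: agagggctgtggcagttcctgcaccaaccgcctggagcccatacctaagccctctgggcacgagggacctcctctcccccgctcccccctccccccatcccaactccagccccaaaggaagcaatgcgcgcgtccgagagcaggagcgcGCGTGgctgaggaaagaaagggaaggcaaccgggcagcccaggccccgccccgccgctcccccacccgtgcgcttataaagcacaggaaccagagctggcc
LDHA held 5 matches at 3 places, ENO1 and PFKFB3 2 each and ADM 1.

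Further genes of the same pathways, listed by known function but with earlier results of these data known, were looked up in the same fits. The genes of a list share the same 8 samples, so that the counts below are a description and not a test. Of 30 other HIF targets, 29 were tested, and their median log2 fold change was 0.16, with 20 higher and 9 lower. Within pairs, their medians were 0.30, 0.14, 0.04 and -0.01 for replicate numbers 1 to 4. In 4 of 4 pairs, 6 of the 29 (20.7%) went one way, beside 20.8% of all genes tested. All 6 were higher, as were 1548 of the 15593 genes tested. At an unadjusted p of 0.05 or less under the block there were 11 of these 29 (37.9%), beside 12.2% of all genes tested. All 11 were higher in hLcn-2-treated cells, a direction in which 6.65% of all genes tested lay. The count rested in part on replicate number 1, without which 5 were higher and 2 lower, beside 9 to 11 higher and 0 or 1 lower without number 2, 3 or 4. The 7 HIF targets described above had a median of -0.10, and no test of the difference between these lists was made. VEGFA, the angiogenic growth factor, was the one gene of the list called by limma with the block. Its normalized counts were 93.9, 133, 136 and 75.1 in controls 1 to 4 and 155, 189, 178 and 127 in hLcn-2-treated cells 1 to 4. VEGFA was higher in 4 of 4 pairs, hLcn-2 sample 4 lay below controls 2 and 3, and the log2 fold change was 0.59 ± 0.20 (SE, n = 4 and 4). The adjusted p of VEGFA under the block was 0.0251 in limma, 0.00256 in edgeR and 7.84e-05 in DESeq2, and it was not called without the block. With both samples of replicate number 1, 2 or 3 left out, the limma adjusted p of VEGFA was 0.0503, 0.0853 and 0.0679, and it was 0.0399 without number 4.

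LOX, which encodes a collagen cross-linking enzyme and was named after its values were seen, was called by edgeR under the block at an adjusted p of 0.034, but not by limma (0.09) or DESeq2 (0.0583). Its log2 fold change was 0.41 ± 0.25 (SE, n = 4 and 4) and was 0.22 without control 4, which held 49 reads, and the limma adjusted p ran from 0.114 to 0.326 with 1 pair left out. The others of the 11 were P4HA1, P4HA2, PLOD2 and LOXL2, which modify collagen, and MXI1, AK4, STC2, BHLHE40 and TGFA, with log2 fold changes of 0.24 to 0.32. STC1 and ANGPTL4, 2 further HIF targets, had -0.36 and -0.37.

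**Figure D4:**
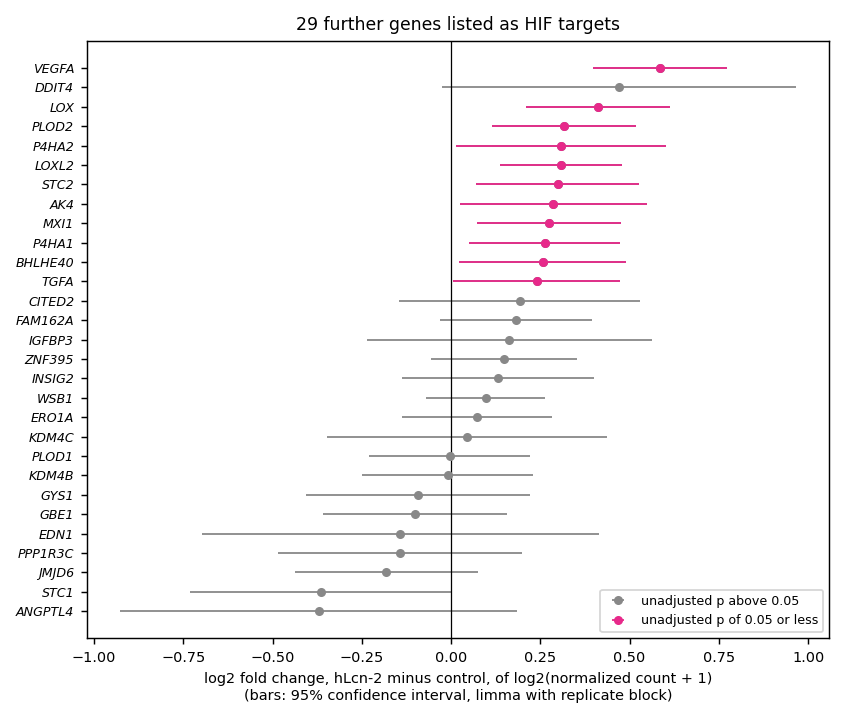
Log2 fold change (hLcn-2 minus control, of log2(normalized count + 1), horizontal axis) of the 29 further HIF targets tested, in order. Points are estimates and bars 95% confidence intervals of limma with the replicate block, with an unadjusted p of 0.05 or less in colour. The 11 coloured genes all lie above 0, up to 0.59 for VEGFA, and STC1 and ANGPTL4 lie lowest.

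Of 41 other genes of glycolysis and pyruvate use, 29 were tested, with a median log2 fold change of 0.01. Under the block 3 of them (10.3%) had an unadjusted p of 0.05 or less, beside 12.2% of all genes tested. All 3 were higher, a direction in which 6.65% of all genes tested lay. HKDC1, a hexokinase-like gene, had 315, 360, 379 and 298 in controls 1 to 4 and 484, 501, 432 and 369 in hLcn-2-treated cells 1 to 4. HKDC1 was thus higher in 4 of 4 pairs, with hLcn-2 sample 4 below control 3, at a log2 fold change of 0.40 ± 0.14 (SE, n = 4 and 4). Under the block its adjusted p was 0.062 in limma, 0.015 in edgeR and 0.00612 in DESeq2. PCK2, the mitochondrial enzyme that makes phosphoenolpyruvate, had a log2 fold change of 0.69 and a limma adjusted p under the block of 0.139. Of 12 other regulators of HIF, 11 were tested, their median was 0.02, and 0 had an unadjusted p of 0.05 or less under the block (limma). HKDC1 and PCK2 too were named after their values were seen.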

How the data were processed

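Per the labels and the study's methods, RNA of 8 CAKI1 samples was sequenced as QuantSeq 3′ libraries with UMI, aligned to GRCh38 with STAR, collapsed by UMI and counted per gene with HTSeq. The annotation release and the strand setting are not given in the sources used here. The values deposited by the authors are a scaled signal, normalized counts on the CPM scale made with edgeR. Dividing each column by the worth of 1 read gave whole reads for 100.0% of values within 0.01. One cell (TXNIP, control 1) held a comma in place of the decimal point. RNR2, the most abundant gene, took 3.31% to 7.10% of the values.

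Limma 3.58.1 (R 4.3.3) was fitted two-sided, with an intensity trend, to log2(normalized count + 1) of the genes that reached 1 CPM in 2 or more samples. Limma had been chosen for normalized values and was kept after whole reads were recovered. Exact permutation tests over the 70 splits of 4 against 4 cannot go below 0.0286. Pairing was taken from the replicate numbers in the labels, and the deviations of same-numbered samples correlated at 0.48, 0.59, 0.61 and 0.31 across genes, against at most 0.23 for other pairs. EdgeR 4.0.16, DESeq2 1.42.0, other pseudocounts, filters and scalings, the replicate block and left-out samples were alternatives. The script was tested on simulated data. Near-identical copies were sought in GENCODE 44 with the last 300 bases of each transcript, and sequences came from RefSeq. Per-sample values are given for the genes that limma called or put at an unadjusted p of 0.05 or less in either fit, for genes whose groups did not overlap and for 9 genes chosen by function. CA9 was among these 9 and, without a row, has no values. The members, lists and these tests were chosen with earlier results of these data known. One further gene was left out of the lists and is not reported here.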

Additional observations from a re-analysis of the deposited data

Results flagged for a closer look

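In 4 of the 78 groups of 4 samples examined (39 genes, 2 groups each), 1 sample lay far from the other 3 by Dixon's criterion, where chance alone gives about 1 in 20, or 3.9. The values below are the gap to the nearest sample divided by the range of the group. SLC2A3, the glucose carrier GLUT3, stood at 177 in control 3 against 105 to 107 in the other controls (0.962). SLC16A3, the lactate exporter MCT4, reached 163 in control 4 against 73.5 to 80.9 (0.917), and hLcn-2 sample 4 was also the highest of its group. For PFKFB3, hLcn-2 sample 1 lay at 123 against 79.0 to 82.9 (0.910). CA12 was at 243 in hLcn-2 sample 3 against 173 to 179 (0.919), and control 3 was likewise the highest control.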

How the results depend on the processing

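Changing the pseudocount, filter, scaling or trend, leaving samples out or adding the replicate block to limma or DESeq2 left 0 of the 39 genes called, and the call of 1 (PGAM1) came from edgeR with the block. Over all genes tested, 0 were called without the block in limma (355 at an unadjusted p of 0.05 or less), edgeR (324) and DESeq2 (284). With the replicate block 44 were called in limma, 233 in edgeR and 173 in DESeq2, and 0 in limma without trend (1567 at an unadjusted p of 0.05 or less). With 1 sample or pair left out the count called was 0 to 58. In limma with the block, 7 of the 39 genes had an unadjusted p of 0.05 or less with the trend and 2 without it. The enzyme median was -0.0735 with a filter on a mean of 10 CPM, -0.094 with CPM of each column total, -0.052 in edgeR with the block, -0.0941 without both samples numbered 3, and -0.0941 to -0.0096 with 1 sample or pair left out. The PFKFB and PDK median was 0.071 with pseudocount 5, 0.0666 with the filter, 0.0765 in edgeR, 0.0645 in DESeq2, 0.0774 in DESeq2 with the block, 0.0597 without number 3, and 0.0137 to 0.316 with 1 sample or pair left out. Over those left-out fits, 22 of the 39 genes changed sign, 21 with 1 sample left out and 14 with 1 pair left out. Among the 22 were 4 of the 15 given sample by sample, LDHA (-0.18 to 0.016), VHL (-0.127 to 0.0444), EPAS1 (-0.199 to 0.316) and HIF1A (-0.365 to 0.206). EPAS1 kept its sign with 1 pair left out (0.003 to 0.263). Leaving out 1 sample also leaves the other sample of its number without a partner. The cause of the sign changes was not tested. With 1 number left out, 10 to 17 of the 39 genes went one way in the 3 remaining pairs, beside 30.5% to 36.2% of all genes tested, a count added after seeing the data. Depth limits the genes with few reads, since 18 reads of ARNT or 2 of PDK3 in control 4 fix 1 of 4 pairs.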
